A study of Sus scrofa with 6 samples.

Results

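Prostaglandins are lipid hormones made from arachidonic acid. A cyclooxygenase forms prostaglandin H2, terminal enzymes turn it into prostaglandins E, D and F and thromboxane, and each of these acts on receptors of its own. In the sow, prostaglandin F2 alpha from the uterus brings the corpus luteum of the ovary to an end, and in pregnancy this is held off so that progesterone continues. The 4 genes described here are PTGS2, the inducible cyclooxygenase, CBR1, a carbonyl reductase that can turn prostaglandin E2 into F2 alpha, PTGDS, a prostaglandin D synthase that is also a secreted lipocalin, and PTGFR, the receptor for prostaglandin F2 alpha. They were taken as all probe sets to which the platform annotation gives exactly 1 symbol, that of one of these 4 of 6567 named genes, and came to 5 probe sets of 23999. A probe set is a group of short probes on the array that reads 1 transcript. PTGFR had 2 probe sets and the other genes had 1 each. A further probe set that the annotation gives to CBR1 together with another locus was not used.

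The samples were ovary and uterine tissue labelled myometrium (the muscle wall of the uterus) of Sus scrofa that were non-pregnant, in early pregnancy or in late pregnancy, with 1 array for each tissue and stage and 6 arrays in all. The design counts 9 pigs, 3 at each stage, and does not say whether an array held RNA of 1 animal or of several. The labels used here state no breed, age or day of pregnancy. With 1 array in each group, a difference between stages within a tissue has no test and no error. The tissues could be tested across the stages, and stage differences shared by both tissues across the tissues.

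The values are MAS5 signals, a linear brightness that has the same trimmed mean on every array. Signals under 81.7, the 40th percentile of all signals, were treated as not above background, and a ratio to such a signal is written as "at least". Between 57.4% and 61.6% of probe sets lay above this floor on an array. The 3' to 5' signal ratio of GAPDH, which reads RNA integrity, was 2.33 in non-pregnant, 1.99 in early pregnant and 1.51 in late pregnant ovary, and 1.52 to 1.70 in uterine tissue. Marker genes went against the label myometrium. The summed signal of 8 smooth muscle genes was 29103 to 46297 on the ovary arrays and 12748 to 24776 on the uterine arrays, and 0 of the 8 passed the test between tissues that is described below. The sum of 9 epithelial genes was 1197 to 1469 on the ovary arrays and 56146 to 79322 on the uterine arrays, and 8 of the 9 were higher in uterine tissue by that test. The tissue is therefore called uterine tissue here. In tissue samples, fewer cells of a type and less RNA per cell cannot be told apart.

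PTGS2, which commits arachidonic acid to prostaglandins, was above the floor only in pregnant uterine tissue. On the ovary arrays it read 1.3 for non-pregnant, 15.3 for early pregnant and 23.6 for late pregnant, all under the floor. On the uterine arrays it read 61.3, 1197 and 1862.5 in the same order of stages. PTGS2 was thus at least 14.7-fold higher in early pregnant than in non-pregnant uterine tissue, and at least 22.8-fold higher in late pregnant than in non-pregnant uterine tissue. Late over early pregnancy gave a smaller ratio of 1.56, a log2 ratio of 0.64. No order can be given to the 4 arrays under the floor.

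CBR1 was above the floor on the same 2 arrays, with wider ratios. The ovary arrays gave 13.8, 45.3 and 29.9 in order of stage, again all under the floor. CBR1 read 16.1 in non-pregnant, 4954 in early pregnant and 12781 in late pregnant uterine tissue. It was at least 60.6-fold higher in early pregnant and at least 156-fold higher in late pregnant than in non-pregnant uterine tissue, and 2.58-fold higher in late than in early pregnancy. Among 13394 probe sets above the floor on both pregnant uterine arrays, CBR1 had the 328th highest ratio of late over early pregnancy and PTGS2 the 1769th. Whether the transcript of the locus that shares the unused probe set also binds this CBR1 probe set was not tested.

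PTGDS, the prostaglandin D synthase, was above the floor on all 6 arrays and had another order of stages. It read 817 in non-pregnant, 1008 in early pregnant and 348 in late pregnant ovary. Uterine tissue gave 1345 in non-pregnant, 149 in early pregnant and 479 in late pregnant samples. The highest and the lowest of the 6 signals were therefore both uterine. In ovary the early pregnant sample was 1.23-fold above the non-pregnant one, while the late pregnant sample was 2.35-fold below the non-pregnant and 2.90-fold below the early pregnant sample. The last of these was the 62nd lowest ratio of 13340 probe sets above the floor on both arrays. In uterine tissue PTGDS was 9.02-fold lower in early pregnancy than in the non-pregnant state, the 26th lowest ratio of 13401. Late pregnant uterine tissue was 2.81-fold below the non-pregnant and 3.21-fold above the early pregnant sample.

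PTGFR, through which prostaglandin F2 alpha acts on luteal cells, was brightest in pregnant ovary. Its brighter probe set read 6982 in non-pregnant, 14853 in early pregnant and 16721 in late pregnant ovary. In uterine tissue it read 336, 1319.9 and 3436 in the same order. Every ovary signal lay above every uterine signal, and within each tissue the signals ran upward from non-pregnant through early to late pregnant. PTGFR was 2.13-fold higher in early pregnant and 2.39-fold higher in late pregnant than in non-pregnant ovary, and 1.13-fold higher in late than in early pregnant ovary. Uterine tissue showed wider ratios, at 3.93-fold for early pregnant and 10.2-fold for late pregnant over non-pregnant, and 2.60-fold for late over early pregnant.

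The dimmer PTGFR probe set gave the same order of stages in ovary but other sizes. It read 349 in non-pregnant, 2088 in early pregnant and 2950.5 in late pregnant ovary, against 5.9, 69.5 and 97.0 in uterine tissue. In ovary its ratios to the non-pregnant sample were 5.98-fold in early and 8.44-fold in late pregnancy, wider than those of the brighter probe set. They were the 18th highest of 13655 and the 11th highest of 13290 probe sets measured on both arrays. In uterine tissue it was above the floor only in late pregnancy, by 1.19-fold, so it gives no order to the other 2 uterine arrays and cannot check the uterine ratios. The size of the PTGFR ratios in ovary depended on the probe set, and their direction did not.

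**Figure D1:**
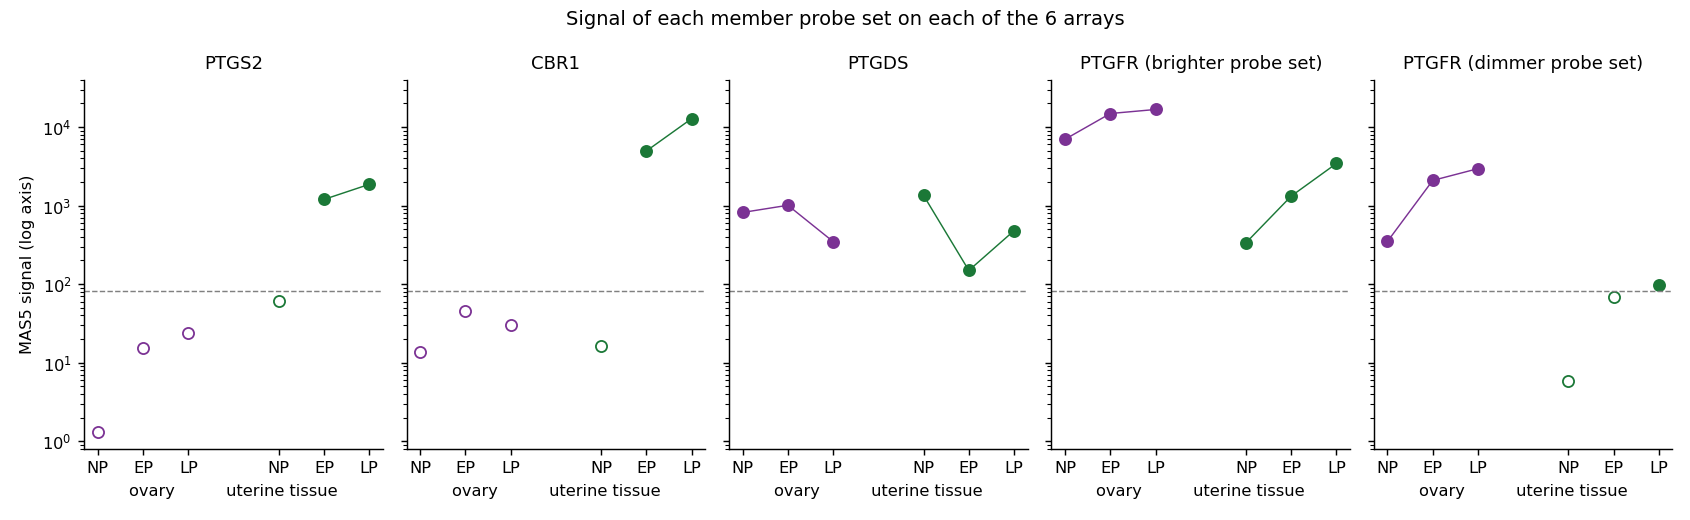
MAS5 signal on a log axis for each of the 5 probe sets, in non-pregnant (NP), early pregnant (EP) and late pregnant (LP) ovary and uterine tissue, 1 array per point with no error. The dashed line is the floor of 81.7 and open points lie under it: PTGS2 and CBR1 are above it only in the pregnant uterine arrays, PTGDS on all 6 arrays, and both PTGFR probe sets are higher in ovary.

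Between the tissues, over the 3 stages, only PTGFR passed the test. A limma model with terms for tissue and stage was fitted to the 6 arrays and adjusted over 15882 probe sets, of which 5.07% passed at an adjusted p of 0.05. All 5 member probe sets were tested, and 2 passed, both of PTGFR. The brighter PTGFR probe set and PTGDS were above the floor on every array, while the other 3 entered the test only through the tissue in which they were high, so no count over the 5 is a support. The brighter PTGFR probe set averaged 12852 ± 5169 in ovary and 1697 ± 1584 in uterine tissue (SD, n = 3 arrays of different stages), a log2 difference of 3.38 ± 0.40 (SE) or 10.4-fold (limma adjusted p = 0.0153). The dimmer one averaged 1796 ± 1325 in ovary and 57.5 ± 46.7 in uterine tissue. Its log2 difference of 3.90 ± 0.60 (SE, limma adjusted p = 0.0279) was taken on floored values, with 2 of the 3 uterine arrays at the floor, and is a difference against background rather than between 2 measured levels. Without the 2 early pregnant arrays the brighter probe set still differed by 3.33 but had a limma adjusted p of 0.102, and without the filter on low signals its limma adjusted p was 0.247. With 1 array in each group, the p-values are set against how far the difference between tissues varied over the 3 stages. That spread may hold stage, animal and technical differences, which cannot be told apart. It is not a spread over animals of a group.

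PTGS2 and CBR1 averaged lower in ovary and did not pass. PTGS2 averaged 13.4 ± 11.3 in ovary and 1040.3 ± 911 in uterine tissue, with a log2 difference on floored values of -2.79 ± 0.88 (SE, limma adjusted p = 0.143). CBR1 averaged 29.7 ± 15.8 in ovary and 5917 ± 6437 in uterine tissue, with a difference of -4.40 ± 1.35 (limma adjusted p = 0.137). In the non-pregnant pair of arrays no difference could be measured for either gene, since both tissues lay under the floor. Without that pair the differences were -4.19 (limma adjusted p = 0.000863) for PTGS2 and -6.61 (limma adjusted p = 0.000231) for CBR1. Both genes were in the test only through the 2 pregnant uterine arrays, with every ovary value set to the floor, so these 2 p-values follow from that choice of arrays and support nothing. PTGDS had no settled direction, at 724 ± 340 in ovary and 658 ± 618 in uterine tissue and a log2 difference of 0.53 ± 0.71 (limma adjusted p = 0.716). Its 95% interval ran from -1.23 to 2.28, and without the early pregnant arrays the difference turned to -0.59.

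Taken at each stage, the ratio of ovary over uterine tissue differed in side for PTGDS and in size for PTGFR. PTGDS was 1.65-fold lower in non-pregnant ovary, 6.76-fold higher in early pregnant ovary and 1.38-fold lower in late pregnant ovary than in the uterine tissue of that stage. By its brighter probe set PTGFR was 20.8-fold higher in non-pregnant, 11.3-fold higher in early pregnant and 4.87-fold higher in late pregnant ovary. The dimmer probe set gave at least 4.28-fold, at least 25.6-fold and 30.4-fold, so with 2 bounds it cannot be put in order and does not check the smaller late ratio. PTGS2 was lower in ovary by at least 14.7-fold in early and at least 22.8-fold in late pregnancy, and CBR1 by at least 60.6-fold and at least 156-fold. For scale, 17.4% of measured probe sets differed by 2-fold or more between the non-pregnant arrays, 23.0% between the early pregnant and 24.6% between the late pregnant arrays. Of the member probe sets measured at a stage (1 or both arrays over the floor), 2 of 3, 5 of 5 and 4 of 5 did so in that order of stages. PTGFR enters these counts with both its probe sets. PTGS2, CBR1 and, where its ratio is a bound, the dimmer PTGFR probe set counted only through the array on which they were high. These shares are therefore no support for the members as a group.

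**Figure D2:**
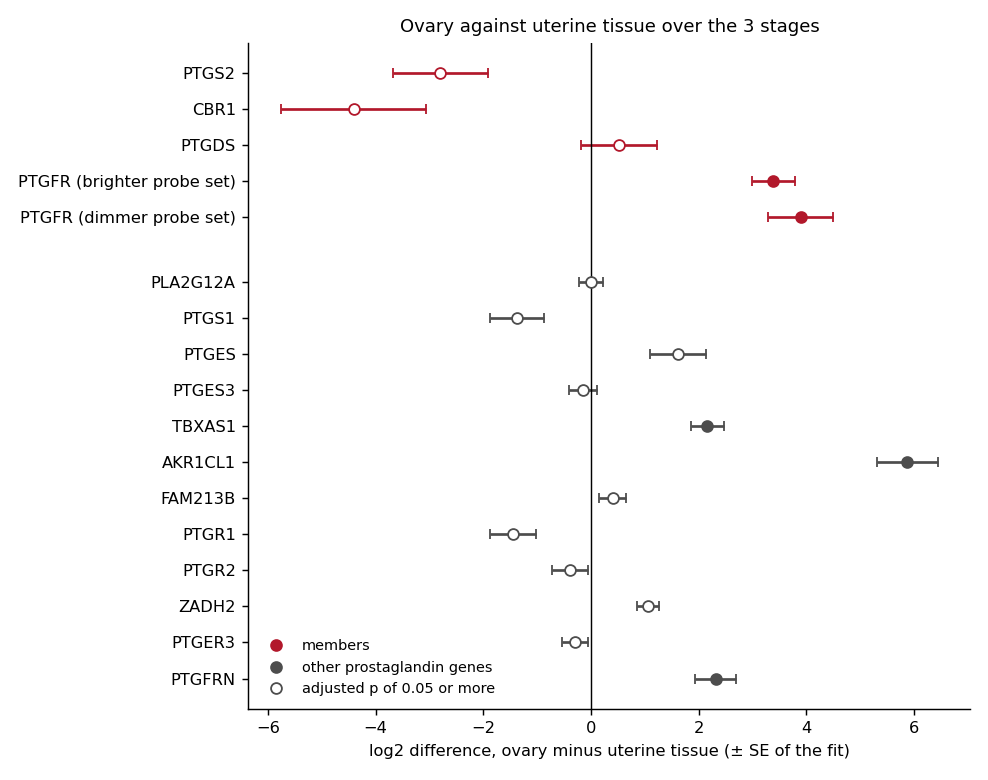
Log2 difference, ovary minus uterine tissue, from the limma model of floored values over all 6 arrays, with bars of 1 SE, for the 5 member probe sets (red) and 12 other prostaglandin genes (grey). Filled points had an adjusted p under 0.05: both PTGFR probe sets, at 3.38 and 3.90, and TBXAS1, AKR1CL1 and PTGFRN. Of these, the dimmer PTGFR probe set and TBXAS1 entered the test only through the ovary arrays.

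Within ovary, PTGFR and PTGDS were the members with differences of 2-fold or more. Early pregnant against non-pregnant ovary had 4.59% of measured probe sets 2-fold or more apart, and 2 of the 3 measured member probe sets, both of PTGFR and both higher. Late pregnant against non-pregnant ovary had 6.57%, and all 3, with PTGFR higher on both probe sets and PTGDS lower. Late against early pregnant ovary had 4.2%, and 1 of 3, which was PTGDS.

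Within uterine tissue, PTGS2, CBR1 and PTGFR (brighter probe set) were higher and PTGDS lower in both pregnant samples than in the non-pregnant one. Of the measured probe sets, 19.1% were 2-fold or more apart between early pregnant and non-pregnant uterine tissue, and 4 of the 4 measured member probe sets were, 3 of them higher. Between late pregnant and non-pregnant uterine tissue 23.5% were, and 4 of 5 members, again 3 of them higher. Late against early pregnant uterine tissue gave 11.5%, and 3 of 5 members, CBR1, PTGDS and PTGFR, all higher. PTGS2 and CBR1 counted as measured only through the arrays on which they were high, so these shares are no support for the members as a group. The comparisons of a tissue share arrays.

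The limma model also gave the stage differences shared by both tissues, and no member passed there. The limma adjusted p was 0.823 for early pregnant and 0.711 for late pregnant against non-pregnant in every member probe set. By limma 0 of 15882 probe sets passed in these 2 contrasts, and 686 and 964 had an unadjusted p under 0.05. The brighter PTGFR probe set had shared log2 differences of 1.53 ± 0.49 for early pregnant and 2.31 ± 0.49 for late pregnant against non-pregnant (SE).

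**Figure D3:**
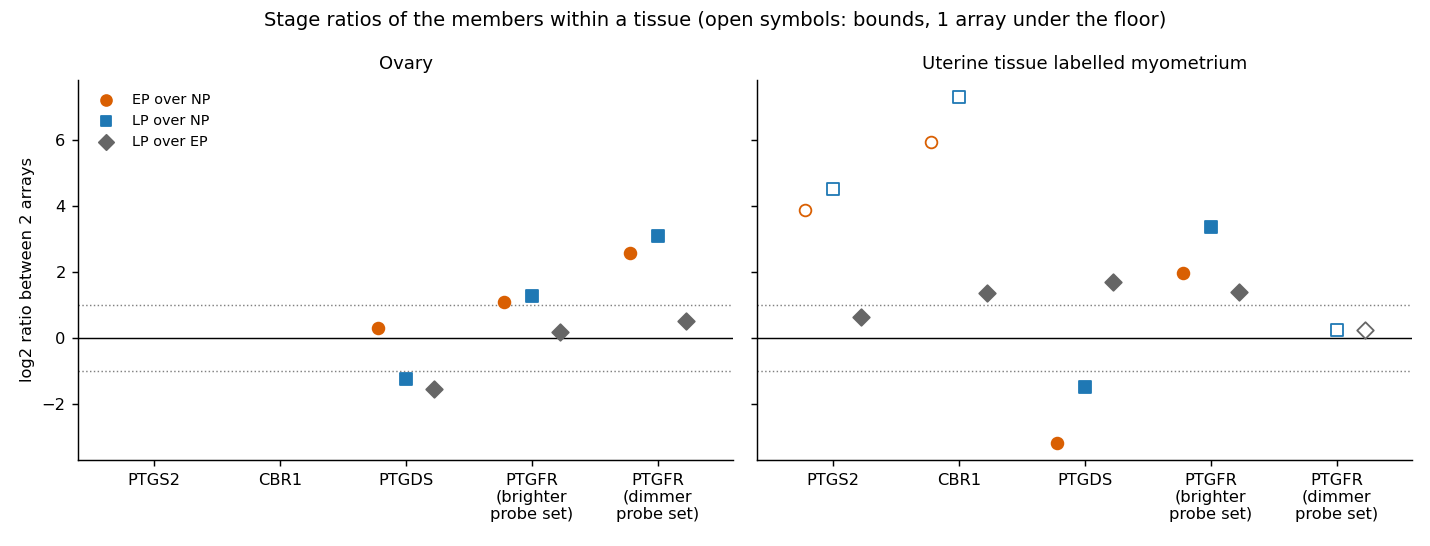
Log2 ratios between 2 arrays of a tissue for each member probe set, with early over non-pregnant (circles), late over non-pregnant (squares) and late over early pregnant (diamonds). Open symbols are bounds with 1 array under the floor, dotted lines mark 2-fold, and no symbol is drawn where both arrays lay under the floor; PTGS2 and CBR1 reach at least 4.51 and at least 7.29 in uterine tissue, and PTGDS reaches -3.17 there.

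In ovary, the summed signal of 7 luteal genes was 83345, 94324 and 101513 in the non-pregnant, early and late pregnant samples. The hormone relaxin, RLN2, carried most of that difference, at 11029, 31899.6 and 29660.1, and the median log2 ratio of the 7 genes to non-pregnant ovary was 0.08 in early and 0.07 in late pregnancy. LHCGR, the receptor for luteinizing hormone on luteal cells, read 2479.9, 3762 and 3309.5. Granulosa genes (7 measured) summed to 11764, 5931 and 11697, and macrophage genes (6 measured) to 6960.1, 3846 and 3789. Smooth muscle genes (8 measured) summed to 37479, 46297 and 29103. Their median log2 ratio was 1.13 for early pregnant over non-pregnant and -1.18 for late over early pregnant ovary. The GAPDH ratio given above also differed among the ovary arrays. So did the hybridisation control probe sets, as a log2 difference from their mean over the 6 arrays. They gave 0.50 in non-pregnant, 0.07 in early pregnant and -0.01 in late pregnant ovary. What part these had in the ovary values of PTGFR and PTGDS was not tested.

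Markers of trophoblast, the outer cell layer of the conceptus, other than GATA2, were highest on the same 2 uterine arrays as PTGS2 and CBR1. Of 13 listed trophoblast genes 5 were named on the array. Their summed signal was 358, 2301 and 247 in the non-pregnant, early and late pregnant ovary, and 1122, 59026 and 64301 in uterine tissue, where 1, 5 and 5 of the 5 genes were above the floor. In uterine tissue the pregnancy-associated glycoprotein PAG6 read 75.2, 22022 and 28500.2 in that order, and the transcription factor GATA3 read 59.2, 3168 and 2778. PLET1 read 49.1, 32821 and 31638, TFAP2C read 51.7, 204 and 143, and GATA2 read 887, 811 and 1243.

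Other cell type sums also differed among the uterine arrays. Those 7 luteal genes, which include enzymes of steroid synthesis, summed to 939.5, 11288 and 13728 in non-pregnant, early and late pregnant uterine tissue, led by STAR, which carries cholesterol into mitochondria, at 13.2, 5573 and 6907. LHCGR was under the floor on all 3 uterine arrays. Epithelial genes gave sums of 56146, 68025 and 79322 and smooth muscle genes of 12748, 23322 and 24776 in the same order. The epithelial sum followed the secreted protease inhibitor SLPI, at 10750.3, 30569 and 32821, and the median log2 ratio of the 9 epithelial genes to non-pregnant was -0.02 in early and 0.25 in late pregnancy. For the 8 smooth muscle genes these medians were 0.52 and 0.72. Macrophage genes (6 measured) summed to 3920, 7796 and 8336, led by AIF1 at 1136.5, 6127 and 5016. Their medians were -0.78 in early and 0.36 in late pregnancy. The part of any of these cell types in the uterine values of PTGS2, CBR1, PTGFR and PTGDS was not tested.

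**Figure D4:**
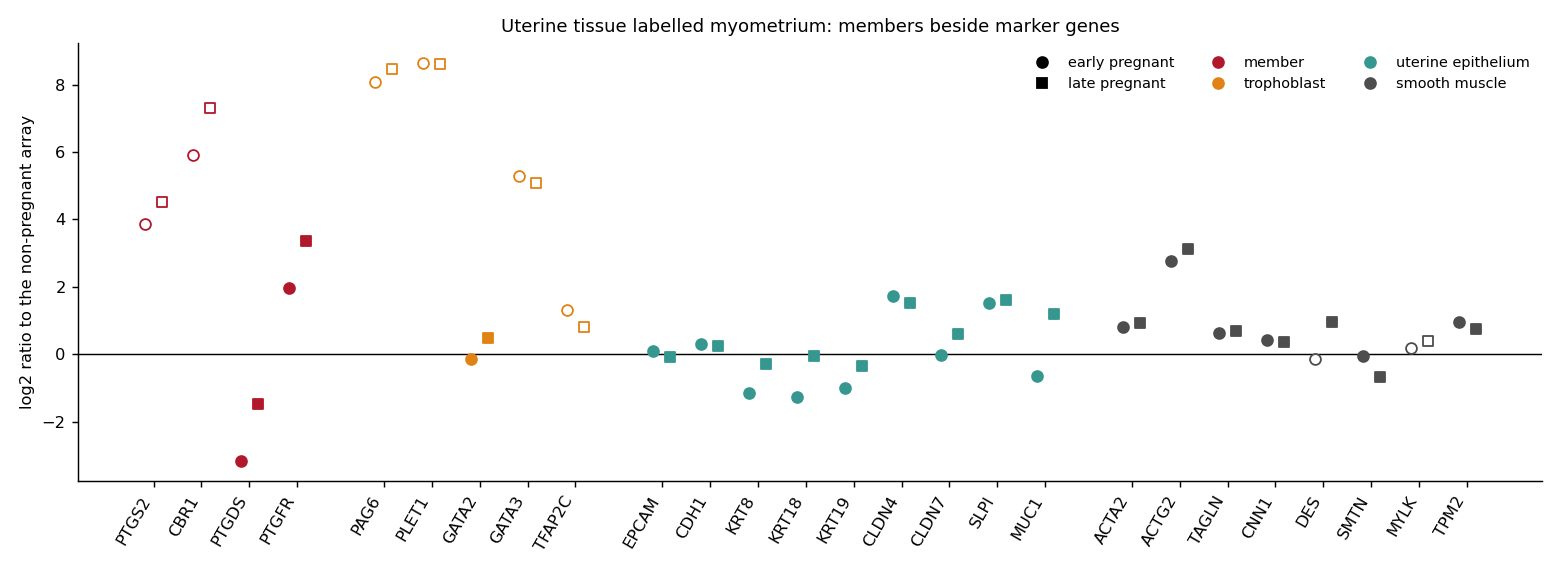
Log2 ratio of the early pregnant (circles) and late pregnant (squares) uterine array to the non-pregnant uterine array, for the 4 members and for markers of trophoblast, uterine epithelium and smooth muscle. Open symbols are bounds with 1 array under the floor; PTGS2, CBR1, PAG6, PLET1 and GATA3 lie highest, EPCAM and CDH1 lie near 0 and PTGDS lies lowest.

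Of the other genes of the pathway, 40 symbols were listed, older names included, and 14 were named on the array. The 12 that were tested had 3 genes higher in ovary, 0 higher in uterine tissue and a median log2 difference of 0.20, against 167 and 143 of 5673 named genes and a median of 0.03. AKR1CL1, of the aldo-keto reductase family that holds prostaglandin F synthases, averaged 14303 ± 1599 in ovary and 299 ± 263 in uterine tissue (SD, n = 3 arrays of different stages), a log2 difference of 5.87 ± 0.57 (SE, limma adjusted p = 0.0113) with the non-pregnant uterine array under the floor. Its other 2 probe sets also averaged higher in ovary without passing, with differences of 1.51 and 1.88. Both were under the floor on all 3 uterine arrays, so these are differences against background. TBXAS1, the thromboxane synthase, differed by 2.16 ± 0.31 (limma adjusted p = 0.0224), with 2 of the 3 uterine arrays at the floor. TBXAS1 entered the test only through the ovary arrays, where it was high, so its pass supports nothing. PTGFRN, a membrane protein that hinders binding to the F receptor, differed by 2.32 ± 0.38 (limma adjusted p = 0.0315), and another of its probe sets by 1.55 without passing. The remaining PTGFRN probe set was above the floor on only 1 array, non-pregnant uterine tissue at 84.0, and was not tested. AKR1B1, HPGD, PTGER2, PTGER4 and SLCO2A1 were not analysed here.

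Other enzymes of the pathway also read higher in pregnant than in non-pregnant uterine tissue. PTGES, which makes prostaglandin E2, the substrate of CBR1, read 4985, 3317 and 6807.5 in the non-pregnant, early and late pregnant ovary and 545, 2583 and 2770.1 in uterine tissue. That was 4.74-fold for early and 5.08-fold for late pregnant over non-pregnant uterine tissue, while the tissue difference of 1.62 ± 0.52 (SE) did not pass (limma adjusted p = 0.153). The constitutive cyclooxygenase PTGS1 was under the floor on all ovary arrays and read 23.1, 222 and 518 in uterine tissue. It was at least 2.72-fold higher in early and at least 6.34-fold higher in late pregnant than in non-pregnant uterine tissue. Another PTGS1 probe set read 13.4, 72.9 and 101.6 in uterine tissue. That was above the floor only in late pregnancy, so it cannot check the early ratio. AKR1CL1 read 27.7, 552.5 and 318 there by its brightest probe set, at least 6.76-fold and at least 3.89-fold higher. Its other probe sets were under the floor on all uterine arrays and cannot check these ratios. The E receptor PTGER3 read at most 79.9 in ovary and 146 in uterine tissue.

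By count, 4 of 11 measured list genes were 2-fold or more higher and 1 lower in early pregnant than in non-pregnant uterine tissue, against 518 higher and 581 lower of 5642 named genes. In late pregnant uterine tissue 4 of 12 were higher and 2 lower, against 646 and 752 of 5695 named genes. Of the list genes counted, PTGR1, FAM213B and PTGR2 were named after their values were seen. PTGR1, which breaks prostaglandins down, was 3.90-fold higher in early and 2.23-fold higher in late pregnant uterine tissue. FAM213B, a prostamide and prostaglandin F synthase, was at least 3.17-fold lower in both, and PTGR2 was 2.29-fold lower in late pregnancy. PTGS1 and AKR1CL1 counted only through the pregnant arrays on which they were high, and FAM213B only through the non-pregnant one. The list was also chosen with earlier results of these data known. These counts are therefore no support for the list as a group.

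The genes whose pattern over the 6 arrays was most like each member were taken from 2918 named genes above the floor on at least 3 arrays and with a range of at least 2-fold. PTGS2 and CBR1 correlated with each other at a Pearson r of 0.9994 over the 6 arrays, with both at the floor on the same 4. Among the eligible genes the same 5 came nearest to both, namely PPAG3, SLC2A3, TPP2, C1H9orf50 and UABP-2, with r of 0.9962 to 0.9998 for PTGS2 and 0.9927 to 0.9989 for CBR1. PTGS2 and CBR1 were themselves above the floor on only 2 arrays, so genes above it on those 2 alone were not eligible. Since both members hold the floor value on the same 4 arrays, the shared list is no support for a link between them. PPAG3, a pregnancy-associated glycoprotein, read at most 90.6 in ovary and 45.9, 8169 and 15847 in non-pregnant, early and late pregnant uterine tissue. SLC2A3, a glucose transporter, read 758 to 844 in ovary and 763, 4127 and 5279 in uterine tissue. UABP-2 read at most 87.5 in ovary and 63.8, 26905 and 28361 in uterine tissue.

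For PTGFR the nearest were TCF21, FEZ2, PROS1, PDLIM5 and PCOLCE2, with r of 0.983 to 0.988. PROS1, the anticoagulant protein S, read 5828, 9765 and 8491 in the non-pregnant, early and late pregnant ovary and 1701, 3724 and 4858 in uterine tissue. For PTGDS they were ZNF7, FUT8, DBN1, ZNF277 and ARNT2, with r of 0.968 to 0.987. FUT8, a fucosyltransferase, read 989.8, 1087 and 808 in ovary and 1254, 595 and 797 in uterine tissue. The 2 PTGFR probe sets correlated at 0.865, and PTGDS and the brighter PTGFR probe set at -0.064. These values over 6 arrays describe likeness and carry no test.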

How the data were processed

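Total RNA (6 ug per sample, per the labels' protocols) was hybridised to 1-colour Affymetrix arrays. The deposited intensity values are linear signals. Per the submitters' processing notes MAS5 was the authors' tool, with no version stated there. The trimmed mean was 500.1 on every array. Of 24123 probe sets, 124 controls were left out. Symbols came from the platform annotation and were checked by gene identifier for 9961 probe sets (0 changed). For a gene with several probe sets the one with the highest mean was used, and genes with only a locus number were not named.

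Signals were raised to the floor before log2. The tissue test used limma 3.58.1 (R 4.3.3; tissue plus stage, 2 residual degrees of freedom, intensity trend) on probe sets that passed the floor on 2 or more arrays, with Benjamini-Hochberg adjustment, and was tested on simulated data. Ratios between 2 arrays have no test. Named were all members, pathway genes past the threshold or at 4-fold or more between stages, PTGES, PTGS1 and PTGER3, and the 5 genes nearest to each member by Pearson r. The members and lists were chosen with earlier results of these data known. Other floors, scalings, filters, probe set choices and arrays left out were tried as alternatives. The number of arrays limits the precision. No sequence or genome position was used here.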

Additional observations from a re-analysis of the deposited data

Results flagged for a closer look

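Of the 2 members measured in both tissues, PTGDS had 2 of 3 stage ratios in opposite directions in ovary and uterine tissue. Early pregnant over non-pregnant gave a log2 ratio of 0.30 in ovary and -3.17 in uterine tissue. Late over early pregnant gave -1.54 in ovary and 1.68 in uterine tissue. Late pregnant over non-pregnant went the same way, at -1.23 in ovary and -1.49 in uterine tissue. The PTGDS difference of ovary minus uterine tissue was -0.72 for the non-pregnant pair of arrays, 2.76 for the early pregnant pair and -0.46 for the late pregnant pair. Each value rests on 2 arrays, the pairs share arrays, and the difference between the tissues or stages was not tested. The early pregnant uterine array, at 149, takes part in 3 of these values.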

How the results depend on the processing

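PTGFR kept its direction between tissues under all 12 alternatives and passed in 10, with log2 differences of 2.89 to 3.93, which is also the range when each stage's pair of arrays is left out in turn, and limma adjusted p of 0.00181 to 0.247. It did not pass without the low-signal filter (3.38) or without the early pregnant arrays. The dimmer PTGFR probe set passed in 8 of 11; it missed at the 60th percentile floor of 246.2 (2.39, limma adjusted p = 0.102), without that filter (3.90, limma adjusted p = 0.299) and without the early pregnant arrays (3.51, limma adjusted p = 0.157). PTGS2 ranged from -4.33 with a pseudocount of 16 (limma adjusted p = 0.0252) to -1.73, and was -4.19 without the non-pregnant arrays, where CBR1 was -6.61. Both genes and the dimmer PTGFR probe set entered the test only through the tissue in which they were high, so their passes support nothing. PTGDS passed in 0 of 12 and ran from -0.59 without the early pregnant to 1.15 without the non-pregnant arrays. PTGS2 and CBR1 fell below the filter when either pregnant stage was left out and have no value there.

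Probe sets higher in ovary numbered 451 and those higher in uterine tissue 354. They became 298 and 179 at the high floor, and 0 and 0 by limma without the low-signal filter, where 2782 had an unadjusted p under 0.05. Without stage in the model 715 were higher in ovary. Leaving out a stage gave 28 and 28 (early pregnant) to 1012 and 1036 (non-pregnant). Counts at 2-fold or more at the 25th percentile floor of 33.7 and at the high floor were 1516 and 307 for ovary early over non-pregnant, 1977 and 467 for late over non-pregnant and 1285 and 285 for late over early. At the high floor uterine tissue had 1806, 2340.0 and 930.0 in those comparisons, with 2937 for late over early at the low floor, and ovary over uterine tissue had 1601, 2194 and 2309 by stage.

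The bounds of PTGS2 and CBR1 follow the floor by construction. For PTGS2, the uterine log2 ratios to non-pregnant were 2.28 (early) and 2.92 (late) at the high floor. Ovary over uterine tissue for PTGS2 was -5.15, -2.28 and -5.28 in early and -5.79, -2.92 and -5.57 in late pregnancy at the low floor, at the high floor and with the pseudocount. In the same order of settings, CBR1 in uterine tissue over non-pregnant had 7.20, 4.33 and 7.27 in early and 8.57, 5.70 and 8.64 in late pregnancy. CBR1 in ovary over uterine tissue had -6.77 and -4.33 at the low and high floor in early pregnancy, and -8.57, -5.70 and -8.12 in late pregnancy. PTGDS at the high floor had -2.45 for early over non-pregnant and 0.96 for late over early uterine tissue, and 2.03 for early pregnant ovary over uterine tissue. The mean of both PTGFR probe sets gave 1.83 and 2.17 for early and late over non-pregnant ovary, 0.99 and 1.80 in uterine tissue, and 3.24, 4.08 and 3.60 for ovary over uterine tissue by stage. The dimmer probe set held the floor value on the non-pregnant and early pregnant uterine arrays. The smaller uterine ratios of the mean therefore follow from the floor and are no second estimate. Another 139 member ratios moved by less than 1.5-fold, and 57 counts by at most 1.5 times. Among these counts, pathway genes higher in ovary were 2 at the high floor and with the mean of probe sets, 4 at the low floor and after centring, and 3 otherwise. Centring moved the median of a comparison by at most 0.14 (log2).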

Other observations

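Trophoblast markers also read higher on the early pregnant than on the non-pregnant ovary array, with PLET1 at 1661 in early pregnant and 140.0 in non-pregnant ovary and PAG6 at 239.8 and 36.6. PTGS2 and CBR1 were under the floor on that early pregnant ovary array, at 15.3 and 45.3. The 2 markers were far lower there than on the early pregnant uterine array, which read 32821 for PLET1 and 22022 for PAG6. Whether PTGS2 and CBR1 go with the trophoblast markers was not tested.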
